A study of Mus musculus with 8 samples.

Results

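Genes of the CREM pathway and the general transcription factors with testis forms were followed from pachytene spermatocytes (PS) to round spermatids (RS). The rule that picks the 10 genes is a list of names and uses no measured value, although it was drawn up with earlier results of these data known: Crem, Creb1, Atf1, Creb3l4, Fhl5, Tbpl1, Tbp, Gtf2a1l, Gtf2a1 and Sox30. They took 14 of the 26099 rows of the transcript tables, in which a row is a group of RefSeq isoforms, and stood among 23343 genes. In the lists of intervals enriched for H3K27ac, an acetylation of histone H3 found at active promoters and enhancers, 28 and 34 intervals in the PS libraries and 82 and 48 in the RS libraries carried their names or lay within 2 kb of their starts, of 41095, 49434, 74919 and 45863 intervals in all.

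RNA was measured in PS and RS of adult C57BL/6 testes in which both Rnf8, an E3 ubiquitin ligase, and Scml2, a Polycomb protein of the germline, were knocked out (Rnf8;Scml2-dKO). H3K27ac was measured in PS and RS of wild-type adult C57BL/6 testes. Each stage had 2 biological replicates in each assay, 8 samples in all, and the cells were enriched by sedimentation through a BSA gradient. By the study's methods, PS and RS of the double knockout could be taken from a single male. RNA and H3K27ac therefore came from different genotypes, both stages of each assay shared one genotype, and any effect of the double knockout on RNA cannot be told apart from the stage levels. Reads for the targeted genes remained in all 4 RNA libraries, with 93, 110, 61 and 50 reads for Rnf8 and 40, 92, 44 and 98 for Scml2 (PS replicates 1 and 2, then RS replicates 1 and 2), and with no wild-type RNA analysed here these counts check no label.

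CREM is a bZIP transcription factor that binds cAMP response elements. In haploid germ cells it drives a large postmeiotic gene programme, and its locus makes activators and repressors from several promoters and by alternative splicing. Its partner ACT, encoded by Fhl5, is a LIM protein that activates CREM in the testis without the phosphorylation that somatic CREB needs. Spermatids also use their own general transcription factors, among them TRF2 (TLF), encoded by Tbpl1 and related to the TATA-binding protein TBP, and ALF, encoded by Gtf2a1l and related to the large TFIIA subunit of Gtf2a1. SOX30 is an HMG-box factor needed for spermatid development.

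The promoters that bear on the results below are printed first, because they stand for the 3 courses of H3K27ac seen among the genes: a gain in RS at Fhl5 and Creb3l4, a lower level in RS at Tbpl1 that did not pass the test, and a high level in both stages at Sox30. Each run gives the 250 bases before the RefSeq start on the strand of the gene, 5′ to 3′, in build GRCm38.p6 (mm10), with CpG dinucleotides in capitals.
Fhl5 (chr4:25242853-25243102, minus strand): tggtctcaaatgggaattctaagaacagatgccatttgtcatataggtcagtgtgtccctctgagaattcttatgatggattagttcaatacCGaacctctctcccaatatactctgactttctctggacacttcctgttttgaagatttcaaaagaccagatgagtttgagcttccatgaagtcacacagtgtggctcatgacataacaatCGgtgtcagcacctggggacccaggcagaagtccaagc
Creb3l4 (chr3:90243513-90243762, minus strand): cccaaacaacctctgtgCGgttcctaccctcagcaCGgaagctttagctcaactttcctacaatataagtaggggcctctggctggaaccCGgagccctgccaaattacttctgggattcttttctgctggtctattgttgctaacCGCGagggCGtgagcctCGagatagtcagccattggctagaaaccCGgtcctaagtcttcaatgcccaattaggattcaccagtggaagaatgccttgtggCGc
Tbpl1 (chr10:22731448-22731697, minus strand): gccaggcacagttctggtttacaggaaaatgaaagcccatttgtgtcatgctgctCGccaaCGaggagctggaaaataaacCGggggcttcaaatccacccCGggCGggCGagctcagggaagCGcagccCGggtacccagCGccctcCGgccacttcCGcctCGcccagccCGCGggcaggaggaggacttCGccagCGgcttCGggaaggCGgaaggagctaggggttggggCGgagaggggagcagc
Sox30 (chr11:45980060-45980309, plus strand): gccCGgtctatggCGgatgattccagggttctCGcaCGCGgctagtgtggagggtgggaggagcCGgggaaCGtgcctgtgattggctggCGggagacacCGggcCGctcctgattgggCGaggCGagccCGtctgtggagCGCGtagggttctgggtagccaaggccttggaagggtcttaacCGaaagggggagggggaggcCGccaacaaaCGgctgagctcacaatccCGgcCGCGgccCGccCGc
The Fhl5 window held 2 CpG dinucleotides and that of Creb3l4 held 9, against 19 at Tbpl1 and 23 at Sox30. The median over all 32851 RefSeq promoter windows of this length was 6 (quartiles 2 and 16). Creb1 and Atf1, the broadly expressed relatives of Crem, had 26 and 32. Tbp had 11, Gtf2a1l had 13, and the windows at the 2 starts of Gtf2a1 had 13 and 16. The Fhl5 start in RefSeq lay 24 bases from the start in the transcript tables, and the other 9 windows matched exactly, so that 9 of the 10 genes were matched (Crem was not).

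Motifs were read in the same windows on both strands. The full cAMP response element TGACGTCA was in none of the 10 member windows and in 1.55% of all windows. Its first 5 bases, TGACG, which the full element also holds, were in 2 member windows, those of Atf1 and of one Gtf2a1 start, and in 17.8% of all windows. GGGCGG, the core of the GC box, was in 6 member windows (Creb1, Atf1, Tbpl1, Tbp, Gtf2a1l and Sox30) and in 32.7% of all, and TATAAA was in no member window and in 12.4% of all. A match here is a string of letters and not a shown binding site.

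The total of reads on genes ran from 9655405 to 12289694 per RNA library. Of the round spermatid markers, 9 of 10 were higher in RS, and their summed RPKM (reads per kilobase of transcript, scaled to library size) was 434 to 543 in PS and 1628 to 1717 in RS. Summed RPKM of the spermatocyte markers was 716 to 806 in PS and 610 to 631 in RS, with 3 of 12 lower and 2 of 12 higher in RS. Markers of Sertoli, Leydig and peritubular cells summed to 549 to 735 in PS and 49.2 to 76.1 in RS, with 5 of 11 lower and 2 higher, and the 5 lower genes were Leydig genes (Cyp17a1, Hsd3b1, Star, Insl3 and Cyp11a1). Immune and blood markers went from 0.544 to 0.786 in PS to 5.18 to 5.88 in RS, with 3 of 3 tested genes higher and 2 of 5 at 0 reads in every library. Spermatogonia markers summed to 28.2 to 41.7 in PS and 51.0 to 53.8 in RS, with 4 of 8 higher. In promoter H3K27ac of the wild-type cells, 8 of 10 round spermatid markers were higher in RS (median log2 difference 1.31). Of 6 tested markers of Sertoli, Leydig and peritubular cells, 5 were lower (median -2.30), with 0 entered where no summit was listed. None of the 5 Leydig genes lower in RNA was among them. Star was not called (-0.81, limma adjusted p = 0.43) and the other Leydig genes were not tested. Those lower in H3K27ac included Wt1, Gata4 and Cldn11, of which Wt1 was higher in RNA (log2 fold change 1.31) and the others were not called. In H3K27ac, the spermatocyte list had 2 of 12 higher and none lower (median -0.25), the spermatogonia list had 1 of 6 higher, and no immune or blood marker was tested. The part of these other cells in the results below was not tested, and in bulk samples fewer cells of a type and less RNA per cell cannot be told apart.

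Crem, Creb3l4, Fhl5 and Sox30 were higher in RS RNA, by 1.6-fold to 9.0-fold, and Gtf2a1 was lower. The other 5 genes were not called: Creb1, Atf1, Tbpl1, Tbp and Gtf2a1l. A call required an adjusted p under 0.05 (edgeR quasi-likelihood test, Benjamini-Hochberg over 14647 genes) and at least a 1.5-fold difference. By that rule 30.4% of all genes tested were called higher in RS and 27.6% lower, against 4 and 1 of the 10 members, so the share of members called was near that of all genes. Their median log2 fold change was 0.35, and that of all genes tested was 0.01. P-values rest on the spread between these 2 samples per stage, moderated by spread pooled over all genes.

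**Figure D1:**
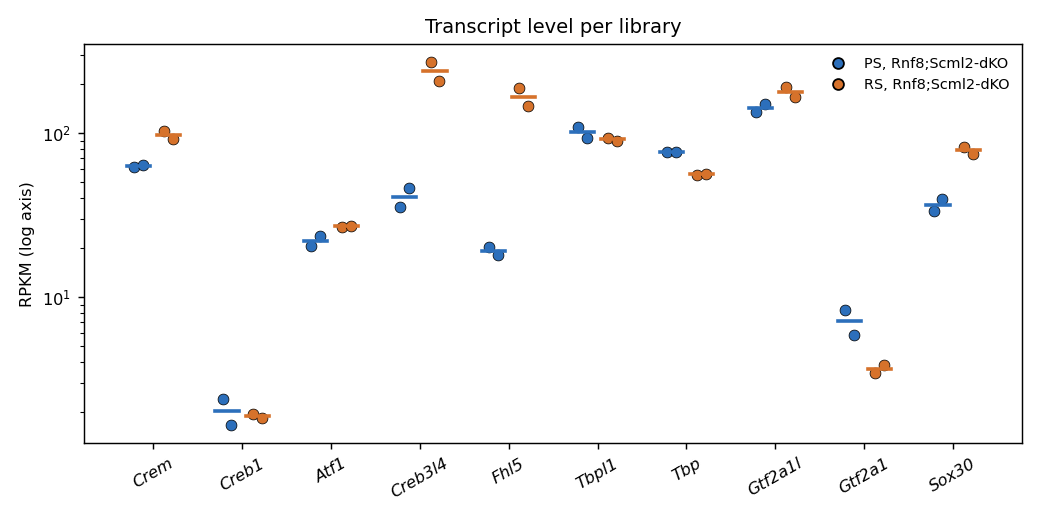
Transcript level (RPKM, log axis) of the 10 genes in the 2 PS and 2 RS libraries of Rnf8;Scml2-dKO testes. Points are libraries and bars are means. The 2 stages are widest apart for Fhl5 (20.2 and 18.2 against 188 and 147) and Creb3l4 (35.3 and 46.2 against 271 and 208), and Creb1 is lowest in RS at 1.94 and 1.82.

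Crem itself had 62.0 and 64.3 RPKM in the PS libraries and 104 and 91.8 in the RS libraries, from 1622, 1642, 3354 and 2494 reads. Both RS libraries were above both PS libraries. The log2 fold change was 0.68 ± 0.13 (SE, n = 2 per stage), a 1.6-fold rise, with an edgeR adjusted p of 0.0018. Crem stood above 94.0% of all genes in PS and 95.9% in RS by mean RPKM.

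The gene sum of Crem joined 4 deposited rows with different starts on the minus strand of chromosome 18, and the rows did not move alike. The row that begins with NM_001110850, whose start is at position 3327591 and which groups many RefSeq transcripts, had 30.2 and 32.1 RPKM in PS and 63.6 and 54.4 in RS. It rose by 0.97 ± 0.13 on the log2 scale (edgeR adjusted p = 0.0031, all rows tested apart), where 27.1% of all rows were called higher and 24.7% lower. The row NM_001110853, which starts 38033 bases downstream of the most upstream start at position 3299556, had 30.5 and 30.9 RPKM in PS and 37.1 and 35.0 in RS. Its RS libraries were also above its PS libraries, but its log2 fold change of 0.28 ± 0.11 was not called (edgeR adjusted p = 0.087).

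Thus these 2 rows had nearly equal levels in PS and parted in RS. The first took 50.3% to 51.6% of Crem reads in PS and 61.1% to 63.1% in RS, and the second took 47.1% to 48.3% in PS and 34.9% to 37.3% in RS. The difference between the rows was not tested. The row NM_001110851, which begins at the most upstream start (position 3337589), was scarce, with 22 and 22 reads in PS and 66 and 39 in RS, and its log2 fold change was 1.09 ± 0.33 (edgeR adjusted p = 0.040). The row NM_001110854, at the most downstream start (position 3281747), had 0 reads in all 4 libraries. If counted directly, 0 would allow up to 3 reads in each. The rows share exons and the authors split shared reads between isoforms by expectation maximization, so each row's count is an estimate.

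H3K27ac at the Crem starts, in wild-type cells, followed another order. Fold enrichment is the fragment pileup over the background of the same library, and the strongest summit within 2 kb of a start was taken. At the most upstream start it was 26.3 and 29.0 in PS and 32.5 and 23.2 in RS, groups that overlapped. That interval also carried the name of the neighbour Gm6225. At position 3299556, the start of NM_001110853, it was 25.1 and 34.0 in PS and 7.73 and 6.39 in RS, so that both RS libraries were far below both PS libraries.

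After centring, and with 1 added to each fold enrichment, the log2 difference at position 3299556 was -1.50 ± 0.16. On that scale RS was at 0.354 of PS (limma adjusted p = 0.0077, n = 2 per stage). Tested at each start apart, a step chosen after the data were seen, 13.5% of start sites were called higher in RS and 11.7% lower, and no fit without single libraries was run. The most upstream start differed by 0.41 ± 0.12 (limma adjusted p = 0.082) and the most downstream, at 5.35, 8.22, 5.70 and 4.06, by 0.02 ± 0.19 (limma adjusted p = 0.94). No summit lay within 2 kb of position 3327591 in any library. The row annotated to start there rose most in RS RNA among the Crem rows with over 100 reads in every library. The scarcer row NM_001110851, at the most upstream start, had a larger log2 fold change (1.09).

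A second change lay inside the gene. An interval that the authors placed in an exon, between the start at 3327591 and that at 3299556, spanned 3309461 to 3310846 and 3309541 to 3311269 of chromosome 18 in the PS libraries and 3308776 to 3312036 and 3308860 to 3311359 in the RS libraries. Its fold enrichment was 7.82 and 8.22 in PS and 19.5 and 15.1 in RS, and its width grew from 1386 and 1729 to 3261 and 2500 bases. Both RS libraries exceeded both PS libraries in height and width. No test was run on intervals away from a start.

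**Figure D2:**
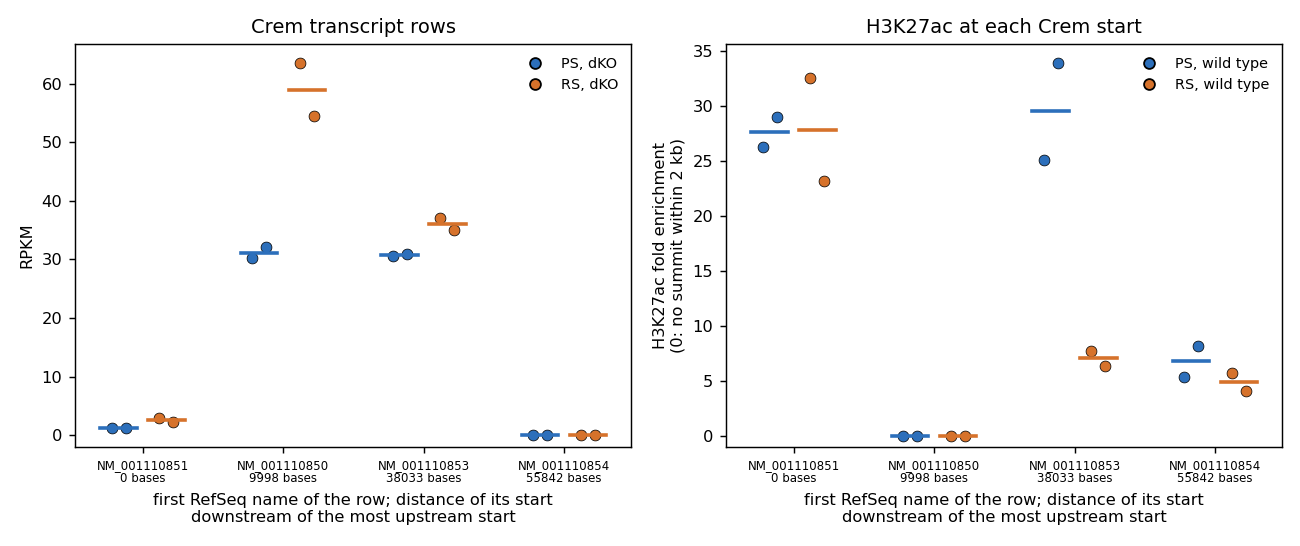
Crem by start. Left, RPKM of each deposited row in Rnf8;Scml2-dKO PS and RS. Right, H3K27ac fold enrichment at the strongest summit within 2 kb of that start in wild-type PS and RS, with 0 where no summit lay there. Points are libraries, bars are means, and starts run from upstream (left) to downstream. At the start 38033 bases downstream the RNA row stays at 30.5 to 37.1 RPKM while H3K27ac is 25.1 and 34.0 in PS and 7.73 and 6.39 in RS.

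Creb1 and Atf1, the relatives of CREM that act in most cell types, were low and moderate and did not pass the test. Creb1 had 2.40 and 1.65 RPKM in PS and 1.94 and 1.82 in RS, the lowest of the 10 genes in both stages. Its groups overlapped, and its log2 fold change was -0.06 ± 0.21 (edgeR adjusted p = 0.81). Atf1 had 20.5 and 23.6 RPKM in PS and 26.91 and 27.05 in RS, with a log2 fold change of 0.33 ± 0.15 (edgeR adjusted p = 0.077). In RS, mean Crem RPKM was thus 97.8 against 1.88 for Creb1 and 26.98 for Atf1.

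Both kept a strong promoter peak in each stage. Fold enrichment at Creb1 was 29.6 and 37.3 in PS and 29.3 and 19.2 in RS, and at Atf1 30.9 and 25.8 in PS and 22.4 and 19.2 in RS. After the libraries were centred on the median of promoters with a peak in all 4, the log2 differences were -0.06 ± 0.16 at Creb1 and -0.01 ± 0.17 at Atf1 (limma adjusted p = 0.80 and 0.95).

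Creb3l4 (Atce1, CREB4), a membrane-anchored bZIP factor of the CREB3 family that is abundant in spermatids, had 35.3 and 46.2 RPKM in PS and 271 and 208 in RS. This was a log2 fold change of 2.60 ± 0.19 (edgeR adjusted p = 1.1e-05). Fhl5 had 20.2 and 18.2 RPKM in PS and 188 and 147 in RS, a log2 fold change of 3.16 ± 0.17 (edgeR adjusted p = 3.7e-06). For both genes the RS libraries lay far above the PS libraries, and Fhl5 went from above 83.0% of all genes in PS to above 97.9% in RS.

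Their promoters, printed above with 2 and 9 CpG, gained H3K27ac in wild-type RS. Fold enrichment at Creb3l4 was 9.47 and 11.5 in PS and 27.3 and 23.8 in RS, and the interval over its start widened from 3147 and 3120 bases to 7342 and 4568. At Fhl5 it was 6.58 and 7.67 in PS and 20.7 and 15.7 in RS, from 15 and 13 fragments at the summit in PS and 50 and 26 in RS, and the interval widened from 1834 and 2148 bases to 4977 and 3204. The groups did not overlap at either gene. The log2 differences were 1.62 ± 0.14 and 1.64 ± 0.12 (limma adjusted p = 0.0051 and 0.0050).

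These were the 2 of 10 members called for promoter H3K27ac, both higher in RS, where 13.3% of 13357 promoters tested were called higher and 11.8% lower. Without centring, 27.1% of all calls were in the higher direction, against 53.0% with it, and the median of all promoters moved to -0.44. With centring, the median log2 difference was -0.04 over the members and -0.03 over all promoters tested. Both calls were lost when either PS library was left out, with values of 1.53 to 1.70 at Creb3l4 and 1.60 to 1.69 at Fhl5 over the 4 reduced sets, and limma then called no promoter at all. All 10 genes had a promoter peak in all 4 libraries.

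**Figure D3:**
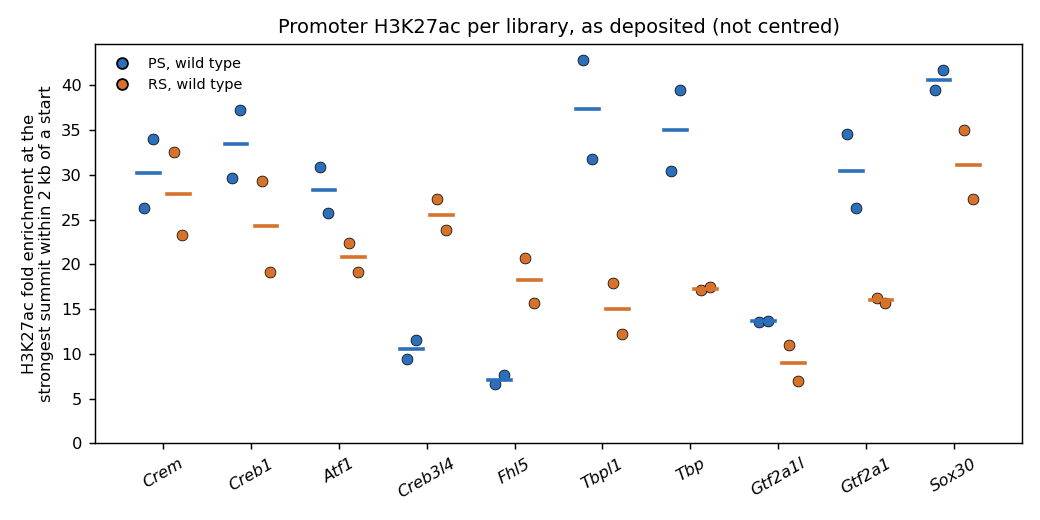
H3K27ac fold enrichment at the strongest summit within 2 kb of a start of each gene in 2 wild-type PS and 2 wild-type RS libraries, as deposited and before centring. Points are libraries and bars are means. Creb3l4 (9.47 and 11.5 against 27.3 and 23.8) and Fhl5 (6.58 and 7.67 against 20.7 and 15.7) are the genes with both RS points above both PS points, and 7 genes have both RS points below both PS points before centring, among them Tbpl1 (42.8 and 31.8 against 17.9 and 12.2) and Tbp (30.5 and 39.5 against 17.1 and 17.4).

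Tbpl1, the gene of the TBP-related factor TRF2, was already abundant in PS. It had 109 and 94.0 RPKM in PS and 93.5 and 89.7 in RS, and its log2 fold change was -0.10 ± 0.12 (edgeR adjusted p = 0.47). Tbp had 76.8 and 76.4 RPKM in PS and 55.8 and 56.4 in RS. Both RS values of Tbp lay below both PS values, and the fall of 0.41 ± 0.12 on the log2 scale had an edgeR adjusted p of 0.016 but stayed under 1.5-fold, so that it was not called. The ratio of Tbpl1 to Tbp RPKM was 1.41 and 1.23 in PS and 1.68 and 1.59 in RS.

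At both promoters H3K27ac was lower in RS in every library. Fold enrichment at Tbpl1 was 42.8 and 31.8 in PS and 17.9 and 12.2 in RS, a log2 difference of -0.85 ± 0.22 after centring (limma adjusted p = 0.061). The difference was called without centring (-1.26, limma adjusted p = 0.047) and with a peak required in all 4 libraries (limma adjusted p = 0.0014). It was not called under quantile normalization (limma adjusted p = 0.067), a 1 kb or 5 kb window (0.064 and 0.055), a -log10 q of at least 5 (0.069) or a replicate block (0.073). Without one library it ranged from -1.11 to -0.59. At Tbp, fold enrichment was 30.5 and 39.5 in PS and 17.1 and 17.4 in RS, with a log2 difference of -0.55 ± 0.20 (limma adjusted p = 0.12). Its strongest summit lay 233 and 249 bases downstream of the start in PS and 1672 and 1704 bases upstream in RS, inside an interval that also carried the name of the divergent neighbour Psmb1. With a 1 kb window, which leaves out those upstream summits, the Tbp difference was -0.78 (limma adjusted p = 0.028) and passed the test.

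Gtf2a1l, the germ-cell TFIIA subunit gene, was the most abundant of the 10 in PS, at 134 and 151 RPKM, and had 192 and 166 RPKM in RS. Both RS values were above both PS values, and the log2 fold change of 0.36 ± 0.14 had an edgeR adjusted p of 0.044 but was under 1.5-fold. Gtf2a1, the somatic counterpart, had 8.33 and 5.87 RPKM in PS and 3.45 and 3.85 in RS. It fell by 0.92 ± 0.19 on the log2 scale (edgeR adjusted p = 0.0033), the one member called lower. The ratio of Gtf2a1l to Gtf2a1 RPKM was 16.2 and 25.8 in PS and 55.7 and 43.1 in RS.

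The 2 rows of Gtf2a1 end at the same position. The authors split shared reads between isoforms by expectation maximization, so each row's count is an estimate. By that split, the fall of Gtf2a1 lay partly in one row. NM_175335 had 99 and 101 reads in PS and 0 and 0 in RS. If counted directly, 0 would allow up to 3 reads in each RS library. NM_031391 had 441 and 270 reads in PS and 274 and 258 in RS. The second row alone had a log2 fold change of -0.55 ± 0.25 (edgeR adjusted p = 0.11). The 2 starts lie close together and their H3K27ac windows shared one summit value per library, 34.6 and 26.3 in PS and 16.3 and 15.7 in RS. After centring the log2 difference was -0.46 ± 0.23 (limma adjusted p = 0.21).

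H3K27ac at the Gtf2a1l start was 13.6 and 13.7 in PS and 11.0 and 6.97 in RS, with a log2 difference of -0.17 ± 0.14 (limma adjusted p = 0.41). Upstream of that gene the RS libraries held stronger intervals than the PS libraries. The strongest named for Gtf2a1l beyond 2 kb had 15.1 and 9.87 in RS, at 88652498 to 88654825 and 88652803 to 88653964 of chromosome 17. In the PS libraries the same stretch held short intervals of at most 4.12 (88653560 to 88653737) and 4.38 (88653873 to 88654018). The peak list of RS replicate 1 was also the longest, and its lowest -log10 q was 1.38 against 1.72 to 1.97 in the others.

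Sox30 had 33.6 and 39.6 RPKM in PS and 82.4 and 74.5 in RS. Every RS value was above every PS value, and the log2 fold change was 1.14 ± 0.14 (edgeR adjusted p = 1.8e-04). Its promoter was among the most acetylated of the 10 in both stages, with fold enrichment of 39.5 and 41.7 in PS and 35.0 and 27.3 in RS. After centring the log2 difference was 0.03 ± 0.11 (limma adjusted p = 0.84), and the sign was negative without centring. Within an intron more than 25 kb downstream of the start, the strongest interval had 14.6 and 11.6 in RS, at 46005668 to 46008193 and 46006142 to 46007567 of chromosome 11, and one at 46007140 to 46007576 in PS replicate 2 had 7.67. PS replicate 2 held a second interval there with 7.13, and PS replicate 1 held one at 46006782 to 46007055 with 3.70, so that Sox30 had an interval in this intronic region in all 4 libraries.

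Of the 4 genes called higher in RS RNA, then, 2 were called higher in promoter H3K27ac, and Crem and Sox30 were not. The order of the 10 genes by RNA log2 fold change and by H3K27ac log2 difference placed Fhl5 and Creb3l4 first and second in both. The genes with negative RNA values, Gtf2a1, Tbp, Tbpl1 and Creb1, also had negative H3K27ac values, although the RNA signs of Creb1 and Tbpl1 and the H3K27ac sign of Creb1 changed when single libraries were left out. Atf1 (0.33 in RNA and -0.01 in H3K27ac) and Gtf2a1l (0.36 and -0.17) had opposite signs in the 2 assays. The H3K27ac sign of Atf1 also changed when single libraries were left out. The 2 measures come from different genotypes, and the points share their libraries, so no p is given.

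**Figure D4:**
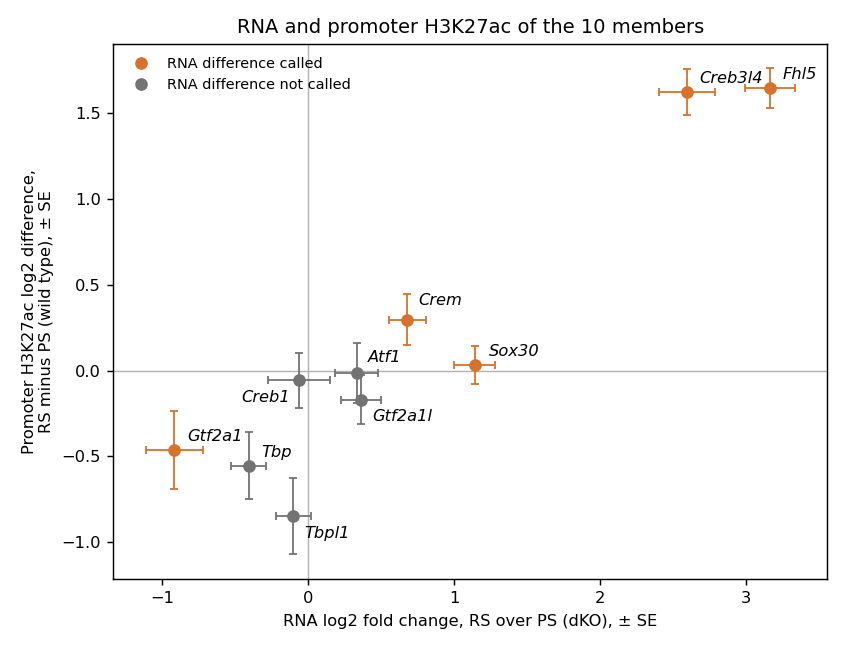
RNA log2 fold change (RS over PS, Rnf8;Scml2-dKO) against promoter H3K27ac log2 difference (RS minus PS, wild type) of the 10 genes, with SE bars from edgeR and limma (n = 2 per stage in each). Orange genes were called for RNA. Fhl5 (3.16 and 1.64) and Creb3l4 (2.60 and 1.62) stand apart at the upper right, and Sox30 (1.14 and 0.03) lies near 0 in H3K27ac.

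The CpG content of the 2 gaining promoters was set against all promoters tested for H3K27ac that had a matched RefSeq window (66.3%), with limits set after the data were seen. Among the 2648 with 10 CpG or fewer in 250 bases, 28.0% were called higher in RS and 14.6% lower. Among the 3125 with 20 or more, 6.40% were called higher and 10.8% lower. The median was 6 CpG in promoters called higher, 14 in those called lower and 17 in those not called.

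Other genes of the pathway were read from lists chosen by role, and their counts stand beside the 30.4% higher and 27.6% lower of all genes tested for RNA and the 13.3% and 11.8% of all promoters. Of 20 tested genes for CREM cofactors and cAMP signalling to CREB, 8 were higher in RS RNA and 1 was lower, with a median log2 fold change of 0.51, and the share higher was near that of all genes. Prkar2a, a regulatory subunit of protein kinase A, went from 2.17 and 3.14 RPKM to 47.4 and 54.1 (log2 fold change 4.29). Fhl2, a LIM relative of Fhl5, was low at 0.393 and 0.115 RPKM in PS and 3.84 and 3.48 in RS (3.85). Camk4, a calmodulin-dependent kinase that acts on CREB and CREM, went from 0.505 and 0.650 to 6.83 and 5.59 RPKM (3.47).

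Kif17, the kinesin reported to move ACT between nucleus and cytoplasm, had 13.2 and 19.2 RPKM in PS and 134 and 138 in RS, a log2 fold change of 3.10 (edgeR adjusted p = 5.4e-06). Its promoter was also called higher for H3K27ac, by 1.12 (limma adjusted p = 0.0076). Crtc1, a CREB coactivator, was the gene of this list called lower in RNA, by -0.73 on the log2 scale. In promoter H3K27ac, 2 of 18 tested genes of the list were higher and 1 was lower.

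Of 12 other CREB and ATF genes tested, 1 was higher in RS, 6 were lower and 5 were not called, with a median of -0.44, and none of 11 was called for promoter H3K27ac. Atf4, a stress-response factor, had 36.9 and 32.5 RPKM in PS and 12.4 and 12.8 in RS (log2 fold change -1.42). Creb3l1 (-1.25) and Atf6b (-1.18), which like Creb3l4 encode membrane-anchored factors, were lower, whereas Atf3 was the one called higher (1.10).

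Of 14 genes described as CREM targets in the testis, 12 were called higher in RS RNA and none lower, with a median of 3.59, and 12 of 14 were called higher in promoter H3K27ac, with a median of 1.36. The protamine gene Prm2 went from 102 and 189 RPKM to 3747 and 4408 (log2 fold change 4.84) and Prm1 from 104 and 166 to 3576 and 3640 (4.77). The transition protein genes Tnp2 and Tnp1 had log2 fold changes of 4.38 and 4.34, and promoter H3K27ac differences of 1.64 and 1.55. Acr (0.37) and Ldhc (-0.49, edgeR adjusted p = 0.0034) differed by less than 1.5-fold in RNA and were not called. In H3K27ac, Camk4 (0.90, limma adjusted p = 0.069) and Ldhc (0.01) were not called. These genes were listed because they are known in spermatids, so their direction says nothing on CREM itself.

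Among other TFIID, TFIIA and TFIIB genes, 6 of 22 were higher in RS RNA and 7 were lower, with a median of -0.22. Both shares were near those of all genes, 30.4% higher and 27.6% lower. Those lower were led by Taf2, at 53.0 and 43.3 RPKM in PS and 6.90 and 8.40 in RS (log2 fold change -2.61), then by Taf4a (-1.72), Taf8 (-1.51) and Taf7 (-1.37), all TFIID subunit genes. Higher in RS were Taf9b (1.20), Taf13 (1.12), Taf1 (1.07), Taf4b, Taf12 and the germ-cell Taf7 relative Taf7l (0.63). Genes of the list were not split by chromosome. The paper reports that sex-linked genes that escape silencing were largely lower in RS of this double knockout. The part of sex linkage in the values here was not tested. Promoter H3K27ac was called higher at 1 of 22, Taf13, and lower at none.

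Of 12 other SOX genes tested, 4 were higher and 1 was lower in RS RNA, with a median of 0.72, and the share higher was near the 30.4% of all genes. Sox5, a known testis-expressed member, had 3.03 and 3.86 RPKM in PS and 26.9 and 19.7 in RS (log2 fold change 2.81). Sox18 (-1.53), Sox13 (1.33) and Sox10 (0.83) changed at levels under 5 RPKM in every library. In H3K27ac, 5 of 11 were lower in RS and none higher, against 11.8% of all promoters lower, with a median of -1.12. Among them were Sox1 (-3.01), Sox17 (-2.77), Sox11 (-1.92) and Sox3 (-1.12), and none of these 4 was called in RNA. A promoter with no listed summit in a library was entered as 0, so such differences can include steps from a listed peak to none. How far they do was not tested.

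**Figure D5:**
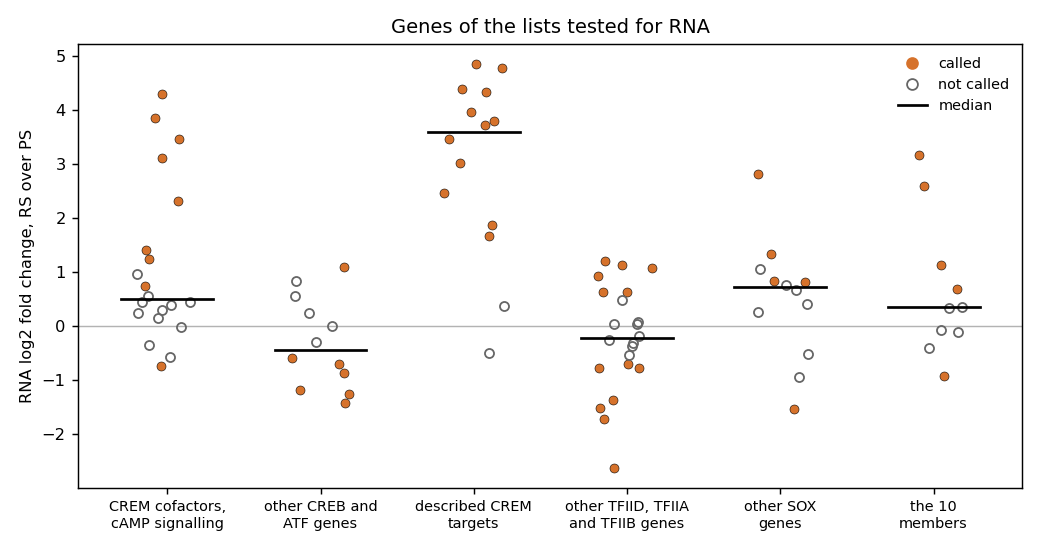
RNA log2 fold change (RS over PS, Rnf8;Scml2-dKO) of the genes of 5 lists and of the 10 members. Points are genes, filled where called, and lines are medians. The described CREM targets have a median of 3.59 with 12 of 14 called higher, and the other CREB and ATF genes a median of -0.44 with 6 of 12 called lower.

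The genes whose 8 values were most like those of Crem and Tbpl1 were found by the root mean square difference over log2(RPKM + 1) in the 4 RNA libraries and log2(fold enrichment + 1) in the 4 H3K27ac libraries, among 14646 genes. For Crem these were Dynll1 (0.161), Rad23b (0.167) and A330021E22Rik (0.171). For Tbpl1 they were Lancl2 (0.181), Arpc2 (0.183) and Pfn4 (0.183). Both sets share the level as well as the course, and the measure takes the strongest start of each gene.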

How the data were processed

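RNA-seq counts were estimated by the authors, who aligned reads to mm10 with STAR (2.4.2a in the submitters' processing notes), kept unique alignments and split reads between RefSeq isoforms by expectation maximization. The authors deposited these estimated counts, as whole numbers without normalization, and RPKM values, which they had scaled by transcript length and sequencing depth. Strandedness of the kit is not given in the sources used here. ChIPmentation reads were aligned with Bowtie and peaks called per sample with MACS2 (1.1.1 and 2.1.0.20140616 in the notes, other versions in the methods). Each deposited list gives, for every summit, a pileup signal (fragments, unscaled), the fold enrichment, which is the ratio of pileup to one background constant per sample (0.723 to 1.46 fragments) after adding 1 to both, and −log10 p and q values. Read totals of these libraries are not given, so their depth is known only through the background.

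Rows were summed per gene. Genes with at least 10 reads in at least 2 libraries were tested with edgeR 4.0.16 (TMM, quasi-likelihood) in R 4.3.3. The strongest summit within 2 kb of a start, as log2(fold enrichment + 1), was centred per library on the median of the 11352 promoters with a peak in all 4 libraries and tested with limma 3.58.1 where both replicates of a stage had a peak. Where no summit was listed, the fold enrichment was entered as 0. The lowest listed fold enrichment was 2.85 to 3.48 by library, so a peak just under the cut counts as a step to 0. A pseudocount of 1 understates differences of low values. Calls required an adjusted p under 0.05 and 1.5-fold. Coordinates are 1-based, mm10. On simulated data edgeR recovered 198 of 200 genes changed 3-fold among 14267 (9.17% of calls false). There limma recovered 200 of 200 promoters changed by 2 on the log2 scale among 12000 (6.10% false). The changed genes were drawn from those with more reads, few features were changed, and no simulated promoter lacked a peak. Those settings differ from the real data, so the rates are not those of the calls above. Alternatives included DESeq2 1.42.0, other scalings, windows and filters, and leaving out each library. Replicate numbers were taken from the labels, and no source used here ties a number to one animal. Members, lists and tests were chosen with earlier results of these data known. Named list genes are those with the 4 largest absolute log2 fold changes among the called, with further ones named after their values were seen. Promoter windows are from RefSeq.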

Additional observations from a re-analysis of the deposited data

How the results depend on the processing

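The RNA calls of the 5 called members, 4 higher and 1 lower, were made under every alternative run. Genes called in RNA ranged from 3128 to 4671 higher and 2911 to 3983 lower without one library. The uncalled RNA value of Creb1 ranged from -0.26 to 0.18 without one library (positive without PS replicate 1, 0.18, and without RS replicate 2, 0.09), and that of Tbpl1 ranged from -0.155 to 0.0336 (positive without RS replicate 2). Taken apart, the Crem row NM_001110853 was not called (0.28).

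H3K27ac calls depended more on the processing. Without centring, which shifts the median of all promoters to -0.44, 723 promoters were higher and 1946 lower (27.1% of calls higher, against 53.0% centred), 2 members were lower (Tbpl1 and Tbp), and Crem and Sox30 changed sign without a call (-0.12 and -0.38). Sox30 was also negative under quantile normalization (-0.0617). A single member was lower with a 1 kb window (Tbp), with a peak required in all 4 libraries (Tbpl1) and without RS replicate 1 (Tbpl1), so that 1 was called lower in each. Without one library, promoters higher ranged from 0 to 2137 and lower from 0 to 2768, and members higher from 0 to 2 and lower from 0 to 1. Without PS replicate 1, limma gave 0 calls but 2163 higher and 1973 lower promoters at an unadjusted p under 0.05, and without PS replicate 2 these were 2058 and 1770. In each reduced set one stage had 1 library, assumed to vary like the other stage. Of the uncalled promoters, Creb1 ranged from -0.18 to 0.052 without one library (positive without PS replicate 2 or RS replicate 2), and Atf1 from -0.19 to 0.16 (positive without PS replicate 1 or RS replicate 1). The Crem value was 0.30 (limma adjusted p = 0.21) with the strongest start taken in each library, which was 3299556 in PS replicate 2 and 3337589 in the others, and -1.50 at position 3299556 alone.

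No source used here says whether samples with one replicate number share an animal (correlation of deviations 0.225 in RNA and 0.00580 in H3K27ac, with 2 pairs). With the replicate as a block, 4589 genes were higher and 4134 lower in RNA and 1093 promoters were higher and 893 lower in H3K27ac, with no change in the calls of members. The causes of these shifts were not tested. With 2 libraries per stage an exact permutation test cannot go below 0.333, so all calls rest on spread pooled over genes, and summit heights rest on as few as 6 fragments at the Crem starts, and on 10 at position 3299556 in RS replicate 2.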
